A study of Arabidopsis thaliana with 10 samples.

Results

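The genes described here are 39 Arabidopsis thaliana loci of the glucosinolate pathway: its MYB regulators, the enzymes that build the aliphatic and indolic glucosinolates, the side-chain enzymes and the breakdown genes. They were listed by locus and matched to the array through the RefSeq accession of each probe and the locus names of assembly TAIR10.1. A probe was present for 37 of the 39, and these 37 are among 22477 genes tested in all, out of 25433 loci with a probe. The remaining members, AOP2 and AOP3, had no matched probe and were not analysed here. By role, the 37 measured members are 3 aliphatic regulators, 10 chain elongation genes, 8 aliphatic core genes, 3 core genes shared by both branches, 2 side-chain genes, 3 indolic regulators, 4 indolic core genes and 4 breakdown genes. The regulators, chain elongation, core and side-chain genes of the aliphatic branch together make 23 measured aliphatic genes, set against 7 indolic genes below. All 37 passed the filter on low signal, which asked for a signal well above background on at least 1 array, and 35 were well above background on all 10 arrays.

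RNA came from whole seedlings grown on agar with sucrose in short days, and each of 10 samples was hybridised to its own 1-colour array. Wild type (WT) was sampled at 7 days and at 15 days with 2 arrays per age, and LFYasEMF1, ult1-3 and the double mutant LFYasEMF1/ult1-3 had 1 array per age. The name LFYasEMF1 stands for an antisense transgene against EMF1, a Polycomb-group gene, under the LFY promoter, and ult1-3 is an allele of ULT1, a trithorax-group gene. The labels give no accession, no transgenic line number and no count of pooled seedlings. They do not say whether the WT replicates came from separate plantings, so the spread between arrays behind each p-value may be technical. The series title asks whether ult1-3 restores the LFYasEMF1 phenotype.

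Glucosinolates are sulfur-rich glucosides that serve Brassicales as chemical defence. The aliphatic ones are made from methionine, whose side chain is first lengthened, and the indolic ones from tryptophan, and both then pass through a common series of core steps. When tissue is damaged, myrosinases cleave them, and specifier proteins decide which toxic or less toxic products form. In Arabidopsis MYB28, MYB29 and MYB76 activate the aliphatic genes, and MYB34, MYB51 and MYB122 the indolic ones.

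Levels are given as the log2 of a probe's signal divided by its array's 75th percentile, so a difference of 1 is a 2-fold difference. They compare arrays for the same gene and not genes with each other. The arrays lay on 3 slides. Slide 1 held WT replicate 1 and the LFYasEMF1 arrays at both ages, slide 2 the other 7-day arrays and slide 3 the other 15-day arrays. Each genotype was therefore compared with the WT array of its own slide and age, in a limma fit of genotype, age and slide set (slide 1 against slides 2 and 3) over all 10 arrays, with Benjamini-Hochberg adjustment over all genes tested. A gene passed at an adjusted p under 0.05. Errors are standard errors of the fit, and a comparison of a mutant with WT rests on 2 arrays against 2. With 1 array per mutant and age, no replicate spread within a mutant was measured. The spread in this fit is how far differences between genotypes, and between the WT replicates, changed with age.

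Between 70.3% and 78.4% of spots per array were well above background, and no spot was saturated. ULT1 was lower on the 4 arrays carrying ult1-3 than on the other 6: its levels were -2.33 and -2.76 in ult1-3 and -6.46 and -5.81 in the double mutant, against -0.95 to -0.16 elsewhere. EMF1 was higher on the arrays labelled LFYasEMF1, at -1.71 and -0.49, than on the WT arrays of slide 1, at -3.07 and -1.55. The log2 difference of 1.21 ± 0.31 did not pass (limma, adjusted p = 0.176). In the double mutant EMF1 stood at -3.10 and -1.62, against -1.80 and -1.29 in WT on slides 2 and 3. Which part of either transcript the probes read was not known here, so these levels do not check the labels, and directions given for the arrays labelled LFYasEMF1 rest on the labels alone. The 4 photosynthetic shoot markers (RBCS1A, LHCB1.3, LHCB2.1 and RCA) had medians of 6.14 to 6.65 on every array, and the 4 root markers (PIN2, COBL9, EXPA7 and PYK10) were well above background on every array too. In such bulk samples fewer cells of a type and less RNA per cell cannot be told apart. Slide 1 also differed from the others in clock transcripts: the median of 6 evening genes minus that of 6 morning genes was 2.62 to 6.13 on its 4 arrays and -2.63 to -1.96 on the other 6.

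**Figure D1:**
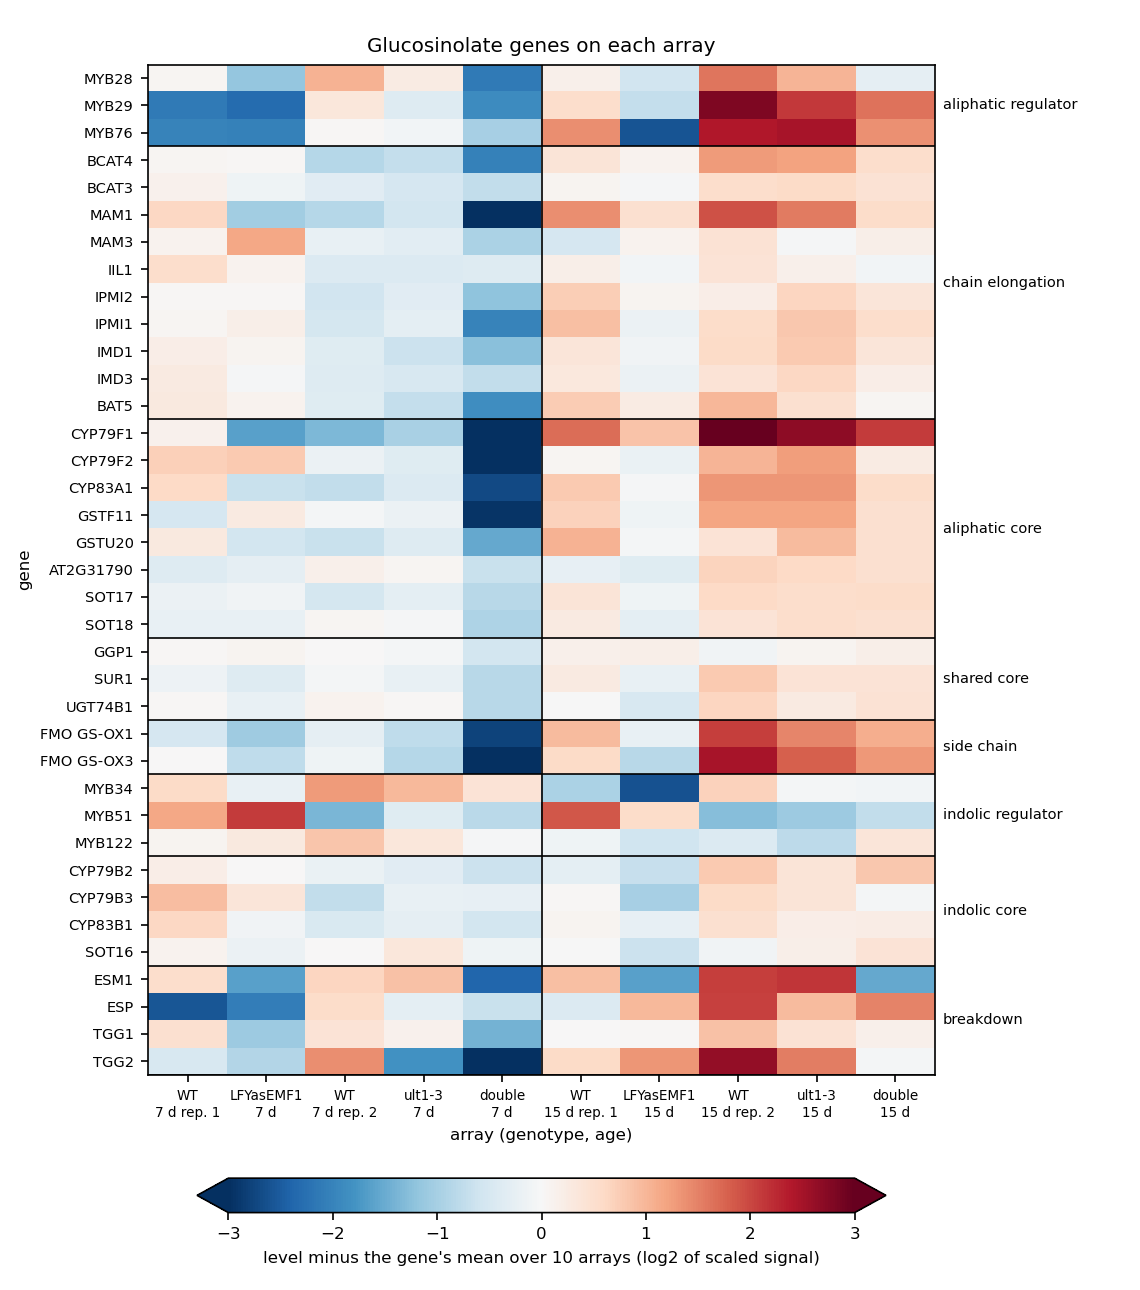
Level of each of the 37 measured genes (rows, grouped by role) on each of the 10 arrays (columns, 7 days left and 15 days right of the line; double is LFYasEMF1/ult1-3), as the log2 of the scaled signal minus the gene's mean over the arrays; colours saturate at 3 either way. ESM1 is low on all 4 arrays that carry LFYasEMF1 (0.36 to 1.22), and CYP79F1 is lowest on the 7-day double mutant array (-8.51).

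Among the 37 genes, ESM1, which steers glucosinolate breakdown, fell in LFYasEMF1 and in the double mutant, and MYB28, a master regulator of the aliphatic branch, fell in the double mutant. The MYB28 result and the ESM1 result in LFYasEMF1 were near the threshold, and each was lost in 9 of 10 fits with 1 array left out. Against WT, 1 member passed in LFYasEMF1 (ESM1, lower), where 1.44% of all genes passed and 0.699% were lower. In ult1-3 against WT no member passed in the limma fit, where 0.0534% of all genes did (12 genes, with 1617 at an unadjusted p under 0.05), and none of the 22 alternative settings called a member. In the double mutant 2 members passed, both lower (ESM1 and MYB28), where 1.14% of all genes passed and 0.747% were lower.

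In the double mutant all 23 aliphatic genes had a negative log2 difference from WT, with a median of -0.95, while the 7 indolic genes had a median of -0.06 and 2 of them were positive. Over all genes tested the median was 0.01, with 11157 of 22477 below 0. In LFYasEMF1 both branches lay below WT: 22 of 23 aliphatic genes with a median of -0.36 and 7 of 7 indolic genes with a median of -0.46, against 0.04 over all genes. Without the 15-day LFYasEMF1 array these medians were 0.14 and 0.04, and without the 7-day one -1.09 and -0.98. By second probes, the indolic CYP79B2 (0.19) and the aliphatic IMD3 (0.07) were positive in LFYasEMF1 over all arrays. The further probes of CYP79F1, BAT5, IMD1 and MAM1 stayed negative. In ult1-3 the medians were -0.03 and -0.04. With 1 array left out the double mutant medians ran from -1.67 (without its 15-day array) to -0.23 (without its 7-day array) for the aliphatic genes and from -0.58 (without WT replicate 2 at 7 days) to 0.45 (without its 7-day array) for the indolic genes. A fit without 1 array of a mutant or its WT takes the age difference from the other arrays. Its value is not the difference between arrays of the same slide and age, here or below. On the 7-day arrays of slide 1 the median aliphatic level was 0.68 in LFYasEMF1 and 0.72 in WT. The median indolic level there was 0.94 and 1.21. These are medians of levels and not of the differences per gene, which are counted by age below, so a small gap between them does not mean that single genes were unchanged. Of the aliphatic and indolic genes only MYB28 in the double mutant passed a test against WT, and the lists themselves were not tested.

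The 2 ages of each genotype were therefore read apart. On the 7-day double mutant array 13 of 23 aliphatic genes were at least 2-fold lower than on the WT array of the same slide, with a median log2 difference of -1.16, and 15.6% of all genes were at least 2-fold lower there. Among these, MYB76 was not well above background on that array and no 2-fold difference can be read for it, so 12 of 23 remain if genes with such bounds are not counted, against 13.6% of all genes. None of the 7 indolic genes was. On the 15-day array 5 of 23 were at least 2-fold lower, with a median of -0.70, against 7.33% of all genes. In LFYasEMF1 4 of 23 were at least 2-fold lower at 7 days and 6 of 23 at 15 days, against 5.58% and 6.86% of all genes, and 3 of 7 indolic genes were at 15 days. In ult1-3 none of the 23 was at either age, against 6.05% and 4.99% of all genes. Each of these counts comes from 1 array against 1, with no replicate check. Guard cell markers were low on the same 7-day array, with KAT1 at -4.01 and MYB60 at -2.44 against -2.83 to -0.69 and -1.73 to -0.47 elsewhere, while FAMA stood at -0.63 and GC1 at 4.56, its highest level of all. Their part in these differences was not tested.

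**Figure D2:**
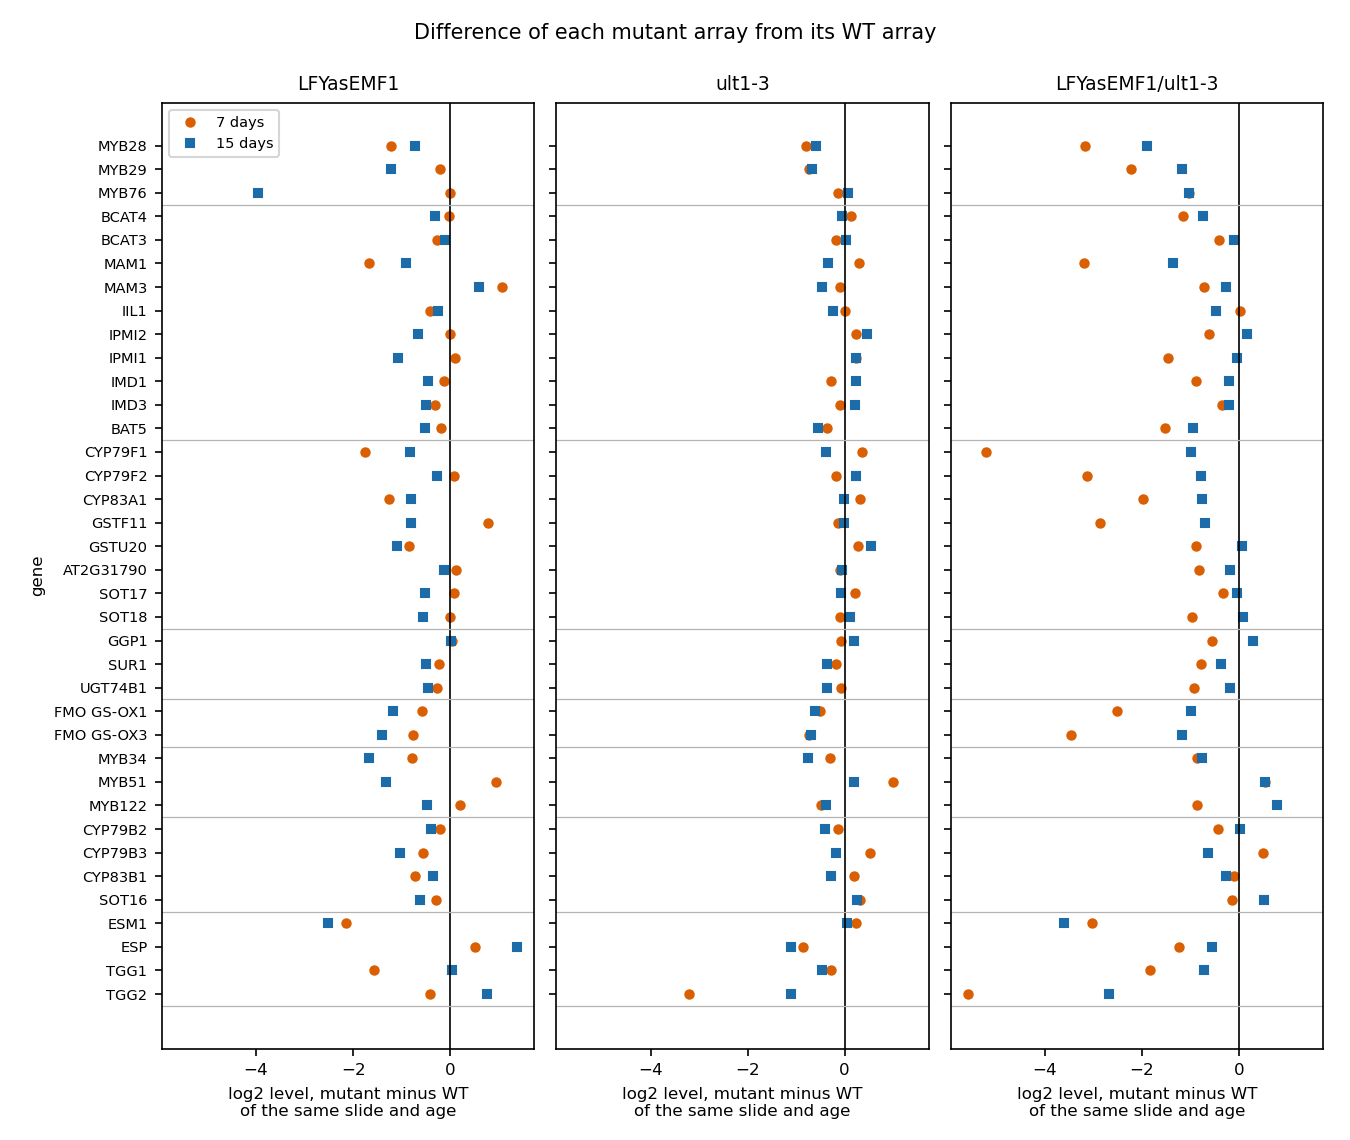
Log2 level of each measured gene on a mutant array minus that on the WT array of the same slide and age (horizontal axis), for LFYasEMF1, ult1-3 and LFYasEMF1/ult1-3 (panels), at 7 days (circles) and 15 days (squares); each point is 1 array against 1. The TGG2 point of ult1-3 at 7 days lies at -3.21, and the aliphatic points of the double mutant spread left at 7 days, to -5.22 for CYP79F1.

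Of the aliphatic regulators, MYB28 (AT5G61420) stood at -1.86 and -0.86 on the WT arrays of 7 days and at -1.76 and -0.30 on those of 15 days. In LFYasEMF1 it was -3.08 at 7 days and -2.48 at 15 days, in ult1-3 -1.67 and -0.89, and in the double mutant -4.05 and -2.19. The 4 arrays with LFYasEMF1 were thus below all others. In the double mutant MYB28 fell by 2.53 ± 0.41 on the log2 scale against WT, a 5.79-fold difference (limma, adjusted p = 0.0468). In LFYasEMF1 the log2 difference was -0.97 and did not pass. The double mutant call was near the threshold: it was lost without the slide term (-1.92, adjusted p = 0.179), with only the arrays of slides 2 and 3 (0.0777) and when any 1 of 9 arrays was left out (0.0595 to 0.270), and held without the 15-day double mutant array (0.0165).

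MYB29 (AT5G07690), which acts beside MYB28, stood at -5.13 and -2.66 in WT at 7 days and at -2.49 and -0.22 at 15 days, with replicate 1 the lower at both ages. It was -5.33 and -3.72 in LFYasEMF1, -3.40 and -0.89 in ult1-3, and -4.90 and -1.39 in the double mutant, and the groups overlapped. MYB76 (AT5G07700), another aliphatic activator and the neighbour of MYB29 on chromosome 5, was the dimmest member and was well above background on 5 arrays. These were WT at 15 days (-5.84 and -4.82), WT replicate 2 at 7 days (-7.19), ult1-3 at 15 days (-4.75) and the double mutant at 15 days (-5.85). At 15 days it was not well above background in LFYasEMF1 and at least 3.28-fold lower there than on the WT array of its slide, from 1 array each.

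In the chain elongation group, which lengthens methionine, all 10 genes had a negative log2 difference from WT in the double mutant, with a median of -0.52, and none passed. MAM1 (AT5G23010), a methylthioalkylmalate synthase that condenses the growing chain with acetyl-CoA, had the widest range of the group. It was 2.07 and 0.61 in WT at 7 days, 2.85 and 3.36 in WT at 15 days, 0.41 and 1.94 in LFYasEMF1, 0.90 and 3.02 in ult1-3, and -2.58 and 2.01 in the double mutant. The 7-day double mutant array was the lowest of the 10, 3.19 below its WT array on the log2 scale. MAM3 (AT5G23020, IMS2 in the reference table), the adjacent gene and a synthase of longer chains, had the only positive aliphatic difference in LFYasEMF1, 0.83 over both ages, and stood at 1.89 there at 7 days, its highest level. BCAT4 (AT3G19710), the aminotransferase that starts the elongation, was -0.59 on the 7-day double mutant array and 0.57 to 2.72 elsewhere. IPMI1 (AT3G58990), a small subunit of the isopropylmalate isomerase, was -1.22 on that array and 0.26 to 1.69 elsewhere, and BAT5 (AT4G12030), the plastid carrier of the intermediates, was -2.38 there and -1.22 to 0.50 elsewhere. IIL1 (AT4G13430), the large isomerase subunit, differed from its WT array by 0.03 there. BCAT3, IPMI2, IMD1 and IMD3, which also act in leucine or related amino acid metabolism or are close relatives of such genes, had 7-day differences between -0.88 and -0.36.

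All 8 aliphatic core genes had a negative log2 difference from WT in the double mutant, with a median of -0.94, and none passed. Their ranges over the 10 arrays were 1.34 to 9.64 on the log2 scale. CYP79F1 (AT1G16410), which turns elongated methionine into aldoximes, stood at -1.81 and -3.28 in WT at 7 days and at -0.25 and 1.14 in WT at 15 days. It was -3.56 and -1.08 in LFYasEMF1, -2.92 and 0.75 in ult1-3, and -8.51 and 0.16 in the double mutant. At -8.51 it was not well above background, so at 7 days CYP79F1 was at least 11.5-fold lower in the double mutant than on its WT array. Over both ages the log2 difference was -3.10 ± 1.50 (limma, adjusted p = 0.302). It was -0.29 without the 7-day double mutant array and -5.92 without the 15-day one. Both of these fits took the age difference from the other arrays. A second CYP79F1 probe gave -2.64 over all arrays. CYP79F2 (AT1G16400), its adjacent and closely similar copy, which acts on long chains, was also lowest on the 7-day double mutant array, at -5.28 against -2.31 to -0.70 elsewhere. The specificity of the probes for each copy was not tested.

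Of the later core enzymes, CYP83A1 (AT4G13770), which oxidises the aliphatic aldoximes, was -1.20 on the 7-day double mutant array and 0.76 to 2.83 elsewhere. GSTF11 (AT3G03190), assigned to the glutathione conjugation step, was -5.93 there and -3.51 to -1.82 elsewhere, and GSTU20 (AT1G78370), assigned to the same step, was 0.77 there and 1.65 to 3.34 elsewhere. The sulfotransferases SOT17 and SOT18, which complete the aliphatic molecule, differed less, by -0.32 and -0.97 at 7 days and by -0.05 and 0.08 at 15 days. AT2G31790, listed here only as an aliphatic core gene, differed by -0.83 at 7 days and by -0.19 at 15 days. The shared core genes GGP1, a peptidase, SUR1, the C-S lyase, and UGT74B1, a glucosyltransferase, had double mutant differences of -0.13 to -0.58 over both ages.

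The side-chain genes FMO GS-OX1 (AT1G65860) and FMO GS-OX3 (AT1G62560) encode flavin monooxygenases that oxidise methylthioalkyl side chains. FMO GS-OX1 was -5.36 on the 7-day double mutant array and -3.66 to -0.49 elsewhere. FMO GS-OX3 was -5.85 there and -3.12 to 0.21 elsewhere. Both were below their WT arrays on all 6 mutant arrays, by between 0.50 (FMO GS-OX1, ult1-3 at 7 days) and 3.46 (FMO GS-OX3, double mutant at 7 days) on the log2 scale, and neither passed in any genotype.

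In the indolic branch none of the 7 genes passed a genotype test. MYB34 (AT5G60890) stood at 1.28 and 2.00 in WT at 7 days, -0.23 and 1.40 in WT at 15 days, 0.49 and -1.90 in LFYasEMF1, 1.70 and 0.66 in ult1-3, and 1.13 and 0.64 in the double mutant. Its lowest level was that of the 15-day LFYasEMF1 array. MYB122 ranged from -5.65 to -4.04 with all genotypes overlapping. The core enzymes CYP79B2 and CYP79B3, which turn tryptophan into its aldoxime, and CYP83B1, which acts on that aldoxime, differed from WT by -0.21, -0.06 and -0.18 in the double mutant over both ages. SOT16, the sulfotransferase of indolic glucosinolates, differed by 0.19. In LFYasEMF1 the corresponding differences were all negative by the probes used, from -0.30 to -0.79. A second CYP79B2 probe, well above background on all 10 arrays, gave 0.19, so the sign for this gene depends on the probe. SOT16 lies next to SOT18 on chromosome 1, and on the 7-day double mutant array the aliphatic SOT18 was 0.97 below WT on the log2 scale and SOT16 0.14 below.

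Of the breakdown genes, ESM1 (AT3G14210) passed in both genotypes with LFYasEMF1. It encodes a protein that shifts glucosinolate hydrolysis towards isothiocyanates and away from nitriles. Its levels in WT were 3.27 and 3.39 at 7 days and 3.64 and 4.83 at 15 days, and in ult1-3 they were 3.62 and 4.88. In LFYasEMF1 it stood at 1.12 at both ages, and in the double mutant at 0.36 and 1.22. The 4 arrays with LFYasEMF1 and the 6 without it did not overlap. ESM1 fell by 2.34 ± 0.39 on the log2 scale in LFYasEMF1, a 5.05-fold difference (limma, adjusted p = 0.0433), and by 3.32 ± 0.39 in the double mutant, a 9.98-fold difference (limma, adjusted p = 0.0165). The difference was present on each slide and at each age: -2.15 and -2.52 in LFYasEMF1, and -3.03 and -3.61 in the double mutant. The LFYasEMF1 call was lost when any 1 of 9 arrays was left out (adjusted p 0.0554 to 0.213) and under quantile normalisation or with the authors' value table (0.0899 and 0.0898), and it held without the 7-day LFYasEMF1 array (0.0483). The double mutant call was lost without WT replicate 2 at 7 days (0.0612) or 15 days (0.110) or the 7-day double mutant array (0.0950).

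TGG1 (AT5G26000) and TGG2 (AT5G25980) encode the myrosinases of leaves, found in guard cells and phloem idioblasts. TGG2 was -0.44 and 0.81 in WT on slides 2 and 3, -3.64 and -0.29 in ult1-3, and -6.03 and -1.87 in the double mutant. On slide 1 it was -2.30 and -1.26 in WT and -2.71 and -0.50 in LFYasEMF1. The log2 difference of TGG2 from WT was -4.14 ± 0.76 in the double mutant (limma, adjusted p = 0.0687) and -2.16 ± 0.76 in ult1-3 (limma, adjusted p = 0.609), and neither passed. The double mutant difference passed under 4 of the other settings (normexp, the filter of 5 arrays, the floor and trended variances, adjusted p 0.0400 to 0.0498) and without the 15-day double mutant array (0.0285). TGG1 was 2.16 on the 7-day double mutant array and 2.50 on the 7-day LFYasEMF1 array, against 3.59 to 4.47 on the other 8. ESP (AT1G54040), which directs hydrolysis towards nitriles, was -6.71 to -3.16 on slide 1 and -4.82 to -2.09 on slides 2 and 3. Its differences from WT were 0.51 and 1.38 in LFYasEMF1 and -1.24 and -0.55 in the double mutant, and the groups overlapped.

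**Figure D3:**
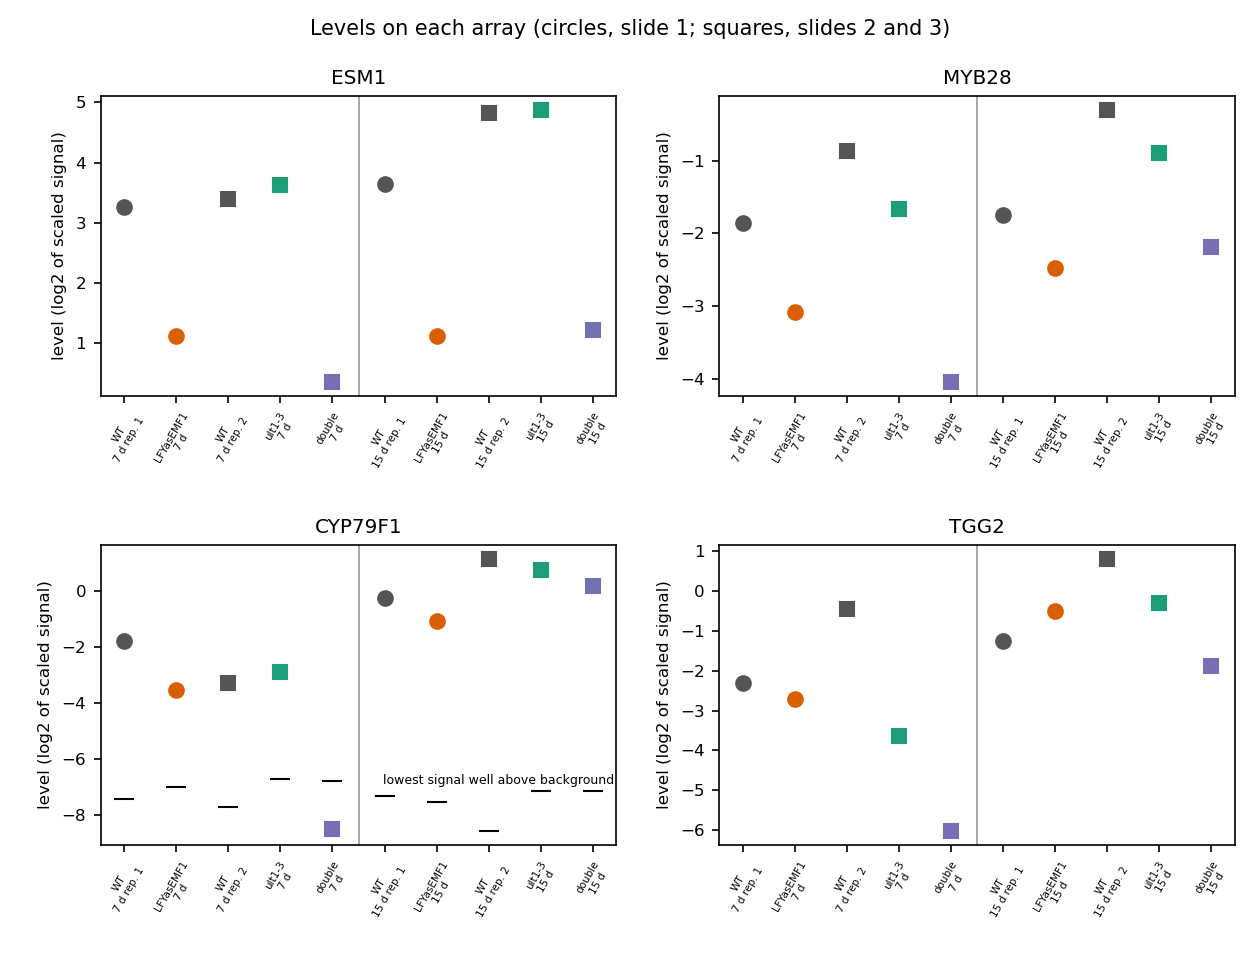
Level (log2 of scaled signal) of ESM1, MYB28, CYP79F1 and TGG2 on each of the 10 arrays, 7 days left and 15 days right of the line; circles are slide 1 and squares slides 2 and 3; grey is WT, orange LFYasEMF1, green ult1-3 and purple the double mutant (double). The dashes in the CYP79F1 panel mark the lowest signal well above background on each array, and only the 7-day double mutant point lies under its dash. The ESM1 levels of the 4 arrays with LFYasEMF1 are 0.36 to 1.22 and those of the other 6 are 3.27 to 4.88.

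The double mutant was also set against each single mutant. Against ult1-3, on the same slides, 1 member passed, where 0.432% of all genes did and 0.271% were lower: ESM1 fell by 3.46 ± 0.39 on the log2 scale, 11-fold (limma, adjusted p = 0.0185). The call was lost when any 1 of the 4 arrays of these genotypes was left out (0.0847 to 0.180). All 23 aliphatic genes had a negative difference, with a median of -0.99, and the 7 indolic genes a median of -0.11. Without the 7-day double mutant array these medians were -0.12 and 0.18. A second IMD3 probe gave 0.03 over all arrays, so the sign for this aliphatic gene depends on the probe. Against LFYasEMF1 no member passed in the limma fit, where 0.289% of all genes did (3640 genes at an unadjusted p under 0.05), nor under any alternative. The aliphatic median there was -0.51, the indolic median 0.42, and the ESM1 levels of both genotypes were 0.36 to 1.22. Both medians changed sign with 1 array left out: the aliphatic one was 0.26 without the 7-day double mutant array and 0.145 without the 7-day LFYasEMF1 array, and the indolic one was -0.08 without the 15-day LFYasEMF1 array. This comparison crosses slides and rests on the slide term. These comparisons share the double mutant arrays with its comparison to WT.

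Whether a genotype's difference from WT changed with age was tested as an interaction. In the double mutant 1 member passed, where 0.628% of all genes did: CYP79F1, whose difference was -5.22 at 7 days and -0.98 at 15 days on its own slides, with an interaction of 5.67 ± 1.07 on the log2 scale (limma, adjusted p = 0.000257). That value is the rise of 8.66 between the double mutant arrays minus the mean rise of 2.99 in both WT replicates. The WT rises were unequal: CYP79F1 went from -1.81 to -0.25 in replicate 1 and from -3.28 to 1.14 in replicate 2. This fit left 1 residual degree of freedom, among the WT arrays, and gave every gene the same standard error. The error and p-value therefore do not measure the spread of CYP79F1 itself. The 7-day double mutant level of CYP79F1 was not well above background. With a floor under dim signals the value was 3.97 (adjusted p = 0.0290), and the call was lost with a normexp background correction (2.36) and without the slide term. CYP79F2 at 3.30 ± 1.07 and FMO GS-OX3 at 3.30 ± 1.07 had the next largest values and did not pass (limma, adjusted p = 0.194 for each). In the double mutant 22 of 23 aliphatic genes had a positive interaction, with a median of 1.09, and 5 of 7 indolic genes, with a median of 0.57. In LFYasEMF1 22 of 23 aliphatic genes had a negative interaction, with a median of -0.72. No member passed in LFYasEMF1 or ult1-3, where 0.589% and 0.142% of all genes did (685 and 434 genes at an unadjusted p under 0.05 in the limma fits).

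MYB29 and 4 aliphatic enzymes passed as higher at 15 days than at 7. The MYB29 call held with any 1 array left out, and those of the 4 enzymes held in 4 to 6 of 10 such fits. On slide 1 alone, the only slide with both ages, no member passed. The aliphatic regulator MYB76 passed as higher and the indolic regulator MYB34 as lower, each with a call near the threshold. Between 7 and 15 days, over all genotypes, 9 members passed, where 14.8% of all genes did: 8 rose and 1 fell, against 6.56% and 8.24% of all genes. Those that rose were MYB29, MYB76, MAM1, CYP79F1, GSTU20, FMO GS-OX1, ESP and TGG2, and MYB34 fell. All 23 aliphatic genes had a positive log2 difference, with a median of 1.02, and 6 of them passed. The 7 indolic genes had a median of -0.06, and 1 passed, a share near the 14.8% of all genes. The median over all genes was -0.01.

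Among the regulators MYB29 rose by 2.54 ± 0.27 on the log2 scale, 5.82-fold (limma, adjusted p = 0.00653), and was higher at 15 days in all 5 pairs of arrays, by 1.61 to 3.51. Its call held with any 1 array left out. MYB76 rose by 2.03 ± 0.53 (limma, adjusted p = 0.0489), from 1 of 5 arrays well above background at 7 days to 4 of 5 at 15 days. With a floor under dim signals the difference was 1.27 and did not pass (limma, adjusted p = 0.0625), with normexp it was 1.02 (limma, adjusted p = 0.0373), and its call held in 2 of 10 fits with 1 array left out. MYB76 was higher at 15 days in 4 of 5 pairs and differed by -0.56 in LFYasEMF1, where neither array was well above background. MYB28 was higher in 5 of 5 pairs, by 0.11 to 1.86, and did not pass. MYB34 fell by 1.21 ± 0.30 (limma, adjusted p = 0.0413) and was lower in 5 of 5 pairs, by 0.48 to 2.40, though its call was lost with any 1 array left out (0.0640 to 0.109). It was the only member lower in all 5 pairs, where 15.6% of all genes were.

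Of the synthesis genes CYP79F1 rose by 4.16 ± 0.95 (limma, adjusted p = 0.0337). Its levels were -8.51 to -1.81 at 7 days and -1.08 to 1.14 at 15 days, which do not overlap. The lowest of them, on the 7-day double mutant array, was not well above background. Over the other settings the CYP79F1 difference ran from 2.02 to 5.58. The share of all genes whose ages do not overlap was not counted. MAM1 rose by 2.35 ± 0.51 (limma, adjusted p = 0.0296), with all 5 pairs higher by 0.77 to 4.59. GSTU20 rose by 1.13 ± 0.24 (limma, adjusted p = 0.0287), with all 5 pairs higher by 0.48 to 2.03. FMO GS-OX1 rose by 2.15 ± 0.41 (limma, adjusted p = 0.0215), and its 7-day levels of -5.36 to -2.84 lay below its 15-day levels of -2.81 to -0.49. CYP79F2 was higher in 3 of 5 pairs, from -0.99 to 3.57, and did not pass. The calls of CYP79F1, MAM1 and GSTU20 held in 4 of 10 fits with 1 array left out, that of FMO GS-OX1 in 6 and that of MYB76 in 2.

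Of the breakdown genes ESP rose by 2.02 ± 0.27 (limma, adjusted p = 0.00967), with pairs of 1.24 to 3.05, and its call held with any 1 array left out. TGG2 rose by 2.40 ± 0.48 (limma, adjusted p = 0.0234), with pairs of 1.04 to 4.16, and its call held in 4 of 10 such fits. ESM1 differed by 0.00 to 1.44 over the pairs and TGG1 by -0.47 to 1.58. In all, 14 of 37 members were higher in 5 of 5 pairs, 10 of them among the 23 aliphatic genes, where 15.7% of all genes were.

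**Figure D4:**
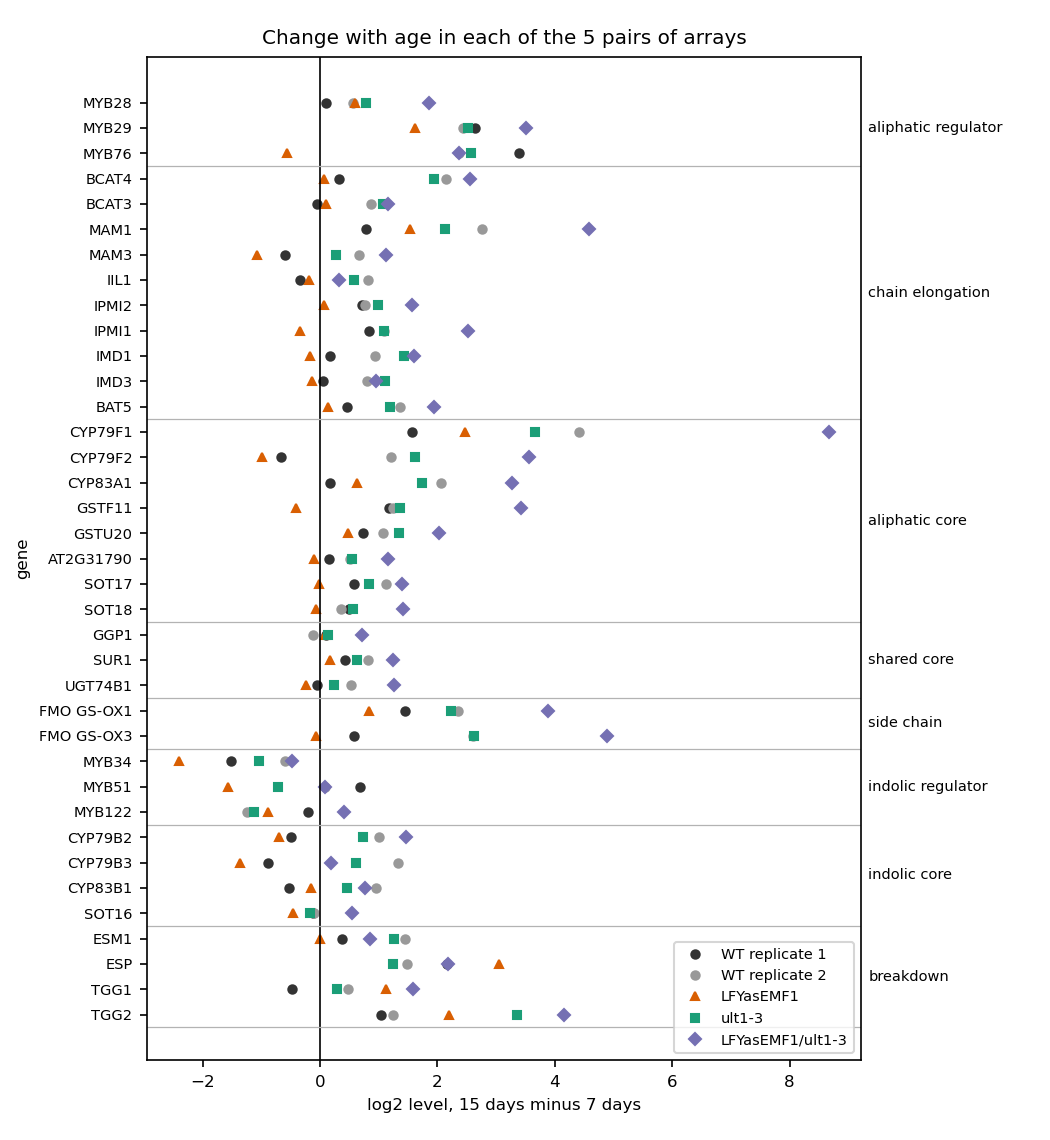
Log2 level at 15 days minus that at 7 days (horizontal axis) for each measured gene, in each of the 5 pairs of arrays (WT replicates 1 and 2, LFYasEMF1, ult1-3 and LFYasEMF1/ult1-3). The double mutant point of CYP79F1 lies at 8.66, and MYB34 lies left of 0 in every pair.

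The age difference was not the same in every pair. The aliphatic median was 0.49 in WT replicate 1, 1.12 in WT replicate 2, 1.34 in ult1-3 and 2.03 in the double mutant, but -0.02 in LFYasEMF1, where 11 of 23 aliphatic genes were higher at 15 days and all 7 indolic genes were lower. At least 2-fold higher at 15 days were 5 of 23 in WT replicate 1, 14 in WT replicate 2, 16 in ult1-3, 21 in the double mutant (20 without MYB76, whose bound was under 2-fold) and 3 in LFYasEMF1, where 11.3%, 7.85%, 7.32%, 15.7% and 7.7% of all genes were. The 4 arrays of slide 1, the only slide with both ages, gave an aliphatic median of 0.28 and no member passing, and the 6 arrays of slides 2 and 3, where age and slide cannot be told apart, gave 1.49 and 20 members. On slide 1 alone the limma fit called no gene at all. The number of members was 2 without either ult1-3 array, 3 without either array of WT replicate 2 and 5 without any 1 array of LFYasEMF1 or the double mutant. Without a slide term it was 4 (CYP79F1, MYB29, MAM1 and FMO GS-OX1). The number of all genes passing for age moved as well. It was 3325 of 22477 as reported, 0 to 4012 over the other settings and 562 to 3214 with 1 array left out. The share of all genes in each of these fits is not given here, so the member counts show only how the number moves. In WT alone, 2 arrays against 2, all 23 aliphatic genes were positive with a median of 0.91, and no gene of the array passed in the limma fit (0% of all genes, 804 at an unadjusted p under 0.05). In WT the replicate number goes with the slide set, and with it as a block 235 genes and 3 members passed: CYP79F1 (limma, adjusted p = 0.000476), MYB76 (0.000967) and MYB29 (0.00758). Root markers moved with age too: all 4 were lower at 15 days in all 5 pairs, with medians of -1.53 to -0.71 at 7 days in WT and of -2.20 to -1.92 at 15 days. Their part in the age differences was not tested.

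The WT replicates, on different slide sets, differed in some members as well. Between WT replicate 2 and WT replicate 1, 3 members passed, where 3.23% of all genes did. MYB51, an indolic regulator, was 2.83 ± 0.52 lower in replicate 2 on the log2 scale (limma, adjusted p = 0.0410), and ESP was 2.79 ± 0.43 higher (limma, adjusted p = 0.0283), as was MYB29 by 2.37 ± 0.42 (limma, adjusted p = 0.0383). The WT levels of MYB51 (AT1G18570) were 0.41 and 1.1 for replicate 1 and -2.12 and -2.03 for replicate 2. Its levels in LFYasEMF1 on slide 1 were 1.36 and -0.21, and on slides 2 and 3 they were -1.12 and -1.84 in ult1-3 and -1.57 and -1.49 in the double mutant. All 3 calls were lost without any 1 of the 4 WT arrays, and with 1 array of ult1-3 or the double mutant left out 1 of the 3 held.

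A second list, 22 glucosinolate genes outside the 39, was also compared between the WT replicates. In WT replicate 2, 16 were lower, 5 of them passing, with a median of -0.75, where 3.23% of all genes passed in either direction. CYP81F2, IGMT1 and IGMT2, which modify the indole ring, PEN2, an atypical myrosinase, and PEN3, a transporter, all stood higher on each slide 1 array than on any other. MYC2, IGMT5 and GSTF9 did so too. The share of all genes that separate the slides in this way was not counted. IGMT1, for example, was 3.63 to 4.63 on slide 1 and 1.34 to 1.90 on slides 2 and 3. Of these 22 genes none passed between any mutant and WT. The clock difference between the slides runs the same way across the arrays, and its part in these levels was not tested.

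Genes that respond to sulfur shortage varied too. LSU2 stood at 3.00 and SDI1 at -0.03 in WT replicate 2 at 7 days, the array against which the 7-day ult1-3 and double mutant arrays were read, and at 0.85 and -0.55 in LFYasEMF1 at 7 days. On the other 8 arrays LSU2 was -2.53 to 0.62 and SDI1 -4.90 to -2.86. SDI1 is known to repress aliphatic glucosinolate synthesis when sulfur is short. The median of the 7 sulfur starvation genes was -1.60 in the double mutant and -1.18 in ult1-3 against WT, and 0.98 in LFYasEMF1, with none passing. Of 7 jasmonate response genes none passed either, and their medians were 0.35 in the double mutant, -0.71 in ult1-3 and 0.77 in LFYasEMF1. The part of either list in the glucosinolate differences was not tested.

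**Figure D5:**
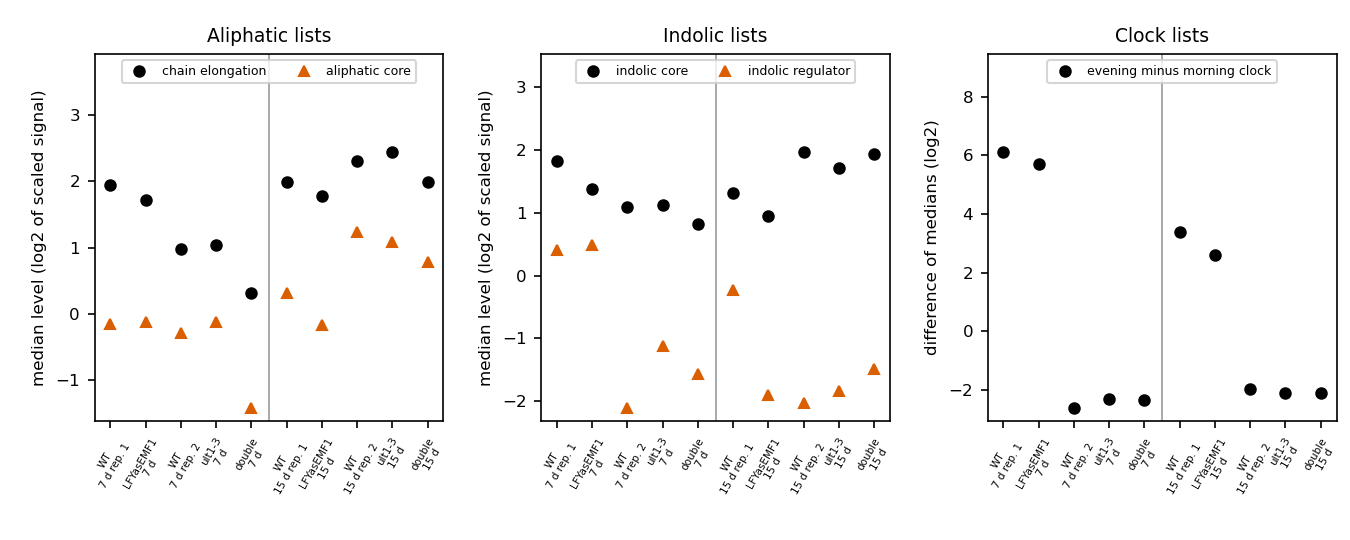
Median level (log2 of scaled signal) on each array of the chain elongation and aliphatic core genes (left) and of the indolic core genes and regulators (middle), and the median of 6 evening clock genes minus that of 6 morning ones (right); arrays are ordered as 7 days, then 15 days, and double is LFYasEMF1/ult1-3. The 7-day double mutant is lowest for both aliphatic lists, and the clock values separate the 4 arrays of slide 1 (2.62 to 6.13) from the other 6 (-2.63 to -1.96).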

How the data were processed

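The 10 deposited array tables hold, per the file headers, an intensity for each spot on a linear scale: the processed signal, background-subtracted by Agilent Feature Extraction 10.7.1.1 (version per the submitters' processing notes) with no normalization between arrays. A value table deposited by the authors is likewise on an intensity scale, with medians of 966.71 to 970.13 per column. Its normalization is not stated, but all columns share a lowest value of 5.93 and a highest of 593211, as after quantile normalization. It served only as an alternative, and may not be independent of the quantile setting. Of 43603 probes, 34358 had a locus. Outlier spots were left out, log2 signals were centred on the 75th percentile of each array, and a gene was represented by its brightest probe on average. For 9 members with several probes the others were set aside. Limma 3.58.1 in R 4.3.3 was used as the report describes, and WT alone was fitted without a block. The scripts were tested on simulated data. Changes are named, in each comparison, for members that passed, filled up to 4 with the largest differences, and the other members by their levels. The members, lists and the slide term were chosen with earlier results of these data known. Same-numbered WT arrays deviated together (r = 0.355 over 22321 genes, which are not independent), and replicate 1 lay on slide 1 and replicate 2 on slides 2 and 3, so the WT age result is also given with the replicate number as a block; no label says what else ties the arrays. The number of arrays limits the precision. Alternatives were other normalizations, backgrounds, filters, probe summaries, variance models, slide terms and leaving out each array.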

Additional observations from a re-analysis of the deposited data

Results flagged for a closer look

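CYP79F1 in the double mutant stood out because its difference from WT differed between the ages by the interaction test, with a value of 5.67 on the log2 scale. The level behind it, on the 7-day double mutant array, was not well above background. With a floor under dim signals the value was 3.97, and the call was lost with normexp (2.36) and without the slide term. The test sets 1 double mutant array per age against WT, with 1 residual degree of freedom. Its standard error is shared by all genes and does not measure the spread of CYP79F1, whose rise differed between the WT replicates.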

How the results depend on the processing

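Counts of members passing depended on the settings. In LFYasEMF1 against WT the count of 1 became 0 with quantile normalization and with the authors' value table, and 0 to 2 with 1 array left out. In the double mutant against WT the 2 became 3, with TGG2, under normexp, the filter of 5 arrays, the floor and trended variances, 1 without a slide term or with arrays of the same slides only, and 0 to 7 with 1 array left out (7 without the 15-day double mutant array). Against ult1-3 the 1 ranged from 0 to 1. The 9 members for age became 15 with a filter of 5 arrays, 16 with trended and robust variances, 4 without a slide term, 0 on slide 1 alone, 20 on slides 2 and 3 alone, and 2 to 8 with 1 array left out. The 3 between the WT replicates ranged from 0 to 3. The interaction of the double mutant went from 1 to 0 with normexp on median signals and without a slide term. A fit of age in WT with the replicate block called 3 members, CYP79F1, MYB29 and MYB76, where the fit without it called 0. Of 33 list medians (aliphatic, indolic and breakdown genes in each comparison), 15 changed sign under at least 1 alternative. Single genes and the breakdown median that changed sign were, in LFYasEMF1 against WT, MYB76 (0.12 with normexp) and CYP79F1 (0.33 without WT replicate 1 at 7 days, lowest -2.91); without a slide term, in ult1-3 against WT, the breakdown median (0.13), ESP (0.42) and MYB29 (0.48), and, in the double mutant against LFYasEMF1, ESP (0.96); in that comparison CYP79F1 (1.00 without the 7-day double mutant array, lowest -4.63); and the interaction of MYB76 in LFYasEMF1 (0.72 with normexp). The causes were not tested, apart from those a smaller set of arrays brings by construction. Over all alternatives the number of all genes passing was 196 to 489 in LFYasEMF1 (324 as reported), 0 to 22 in ult1-3 (12), 75 to 996 in the double mutant (256), 9 to 502 against LFYasEMF1 (65), 27 to 123 against ult1-3 (97), 0 to 4012 for age (3325), 0 to 235 for age in WT (0), 37 to 1098 between WT replicates (725), and, for the interactions, 0 to 132 (132), 0 to 34 (32) and 0 to 174 (141). Not run were the double mutant against LFYasEMF1 within slides, which share none, and interactions without a WT array or an array of the genotype tested. Leaving out an array of another mutant left each interaction as it was, by construction, with 1 member for the double mutant and 0 for the others. Dim genes such as MYB76 and CYP79F1 at 7 days are limited by signal over background.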
